A study of Mus musculus with 12 samples.

Results

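A set of lysosomal proteases was followed in tumour-associated macrophages (TAMs): the cysteine cathepsins B, C, H, K, L, S and Z, the aspartic protease cathepsin D, the serine carboxypeptidase cathepsin A and the asparagine-specific protease legumain. The 10 genes (Ctsb, Ctsc, Ctsh, Ctsk, Ctsl, Ctss, Ctsz, Ctsd, Ctsa and Lgmn) were taken by name from the 24781 rows of the count table, of which 9580 held enough molecules to be tested. 9 of the 10 genes were among those tested, and Ctsk was not. Wild-type mice carried MC38 tumours, made from a mouse colon adenocarcinoma line, and received intraperitoneal injections of either picrotoxin, a blocker of the ionotropic receptor for GABA, or its solvent DMSO, from before tumour inoculation onwards. On day 7, 100 CD45+ CD11b+ cells with high F4/80 were sorted from a tumour for each library, which gave 6 libraries per treatment whose labels number them from 1 to 6. All animals carried the tumour and none was untreated, and strain, sex and age were stated for the study as a whole only. The labels call the libraries independent preparations, the methods give each a mouse of its own, and the figure text gives fewer mice than libraries, so p-values would be too small if libraries shared a mouse. The counts are numbers of RNA molecules told apart by a molecular barcode.

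Cathepsins are made as inactive precursors, tagged with mannose 6-phosphate in the Golgi and carried to endosomes and lysosomes, where acid pH and cleavage activate them. In macrophages they break down engulfed protein, trim antigens and the invariant chain of MHC class II, and cut the endosomal Toll-like receptors into their signalling form, and some are secreted into the matrix of tumours. Legumain cleaves after asparagine and processes several cathepsins from the single-chain to the heavy and light chain form. Cystatins hold escaped cysteine cathepsins in check, and many lysosomal genes carry the E-box letters CACGTG near their start, the core of the site that TFEB and its relatives bind.

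Promoter sequences of 8 members were found in the RefSeq table for mouse (GRCm38.p6, the assembly also called mm10), with 10 entries among them. The 250 bases upstream of each start were searched on both strands for the E-box CACGTG, which 6.02% of all 32851 promoters held, and for GAGGAA, which contains the GGAA core bound by the macrophage factor PU.1 and was held by 23.3%. An E-box was found in at least 1 promoter entry of Ctsd, Ctsl, Ctsa and Lgmn, and GAGGAA in those of Ctsc, Ctss and Ctsk. In Ctsa and Lgmn the E-box was in entry 2 only. By the gene positions given further below, every E-box except the Ctsd site printed first lies inside its gene, past the annotated 5′ end. The RefSeq starts of those entries thus lie within the annotated gene. No promoter of a member held both, and that of Ctsz held neither. The sites below are windows of 30 bases around each E-box, 5′ to 3′ on the strand of the gene with the E-box in capitals, and are shown for the 4 members that held one, of which Ctsl and Ctsd varied most between libraries.
Ctsd, chr7:142388048-142388077, minus strand: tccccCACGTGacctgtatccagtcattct
Ctsd, chr7:142387908-142387937, minus strand: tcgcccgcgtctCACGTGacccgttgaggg
Ctsl, chr13:64370739-64370768, minus strand: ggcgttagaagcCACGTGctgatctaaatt
Ctsa, chr2:164833743-164833772, plus strand: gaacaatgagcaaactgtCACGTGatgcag
Lgmn, chr12:102439124-102439153, minus strand: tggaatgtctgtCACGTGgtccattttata

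The promoters of Ctss and Ctsc, the members with the highest levels, are printed whole on the plus strand, with GAGGAA or its reverse complement TTCCTC in capitals.
Ctss, chr3:95526536-95526785: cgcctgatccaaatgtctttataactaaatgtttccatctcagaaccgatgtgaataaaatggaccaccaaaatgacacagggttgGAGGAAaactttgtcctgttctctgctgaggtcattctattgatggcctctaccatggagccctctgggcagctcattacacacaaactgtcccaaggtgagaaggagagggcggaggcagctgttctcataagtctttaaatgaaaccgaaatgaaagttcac
Ctsc, chr7:88277835-88278084: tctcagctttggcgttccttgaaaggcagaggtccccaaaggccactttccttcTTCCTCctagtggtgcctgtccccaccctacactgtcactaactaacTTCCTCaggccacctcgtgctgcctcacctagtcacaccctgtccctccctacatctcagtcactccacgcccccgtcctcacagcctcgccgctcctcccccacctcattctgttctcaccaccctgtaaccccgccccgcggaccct

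The letters are a description of these windows and were not measured for binding. Of the other motifs searched, AP-1 (TGANTCA, held by 6.75% of promoters) was found in no member, the interferon-type GAS (TTCNNNGAA, 7.02%) only in Ctsc and TATAAA (12.4%) in Ctss and Lgmn, again within 250 bases.

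Library totals ran from 201697 to 309617 molecules, so a count of 0 in the smallest library allowed a share of up to 0.00149% (3 molecules, counting error only). Markers of macrophages (14 genes, Csf1r, Cd68, Adgre1 and C1qa among them) made up 0.960% to 1.35% of the molecules of DMSO libraries and 1.17% to 1.34% of those of picrotoxin libraries. The B cell markers Cd79a, Ms4a1 and Pax5, the T cell markers Cd3e, Cd3g and Cd8a, and the epithelial markers Epcam, Krt18, Krt19 and Cldn4 were at 0 in all 12 libraries. Summed neutrophil, dendritic cell and B cell markers reached at most 10, 7 and 3 molecules in a library. The 10 T and NK cell markers in the table summed to at most 1 molecule in a DMSO library and 23 in a picrotoxin library, the latter nearly all Gzmb in picrotoxin library 6. The 6 epithelial markers summed to 8 to 14 molecules in DMSO and 8 to 21 in picrotoxin libraries, most of them from the adhesion gene Cdh1, which had 9.62 ± 2.15 and 15.7 ± 5.84 normalised molecules (SD, n = 6; log2 fold change 0.70, unadjusted p under 0.05, edgeR adjusted p = 0.428). Fibroblast and matrix markers (16 genes, Col1a1, Col3a1 and Dcn among them) varied far more, with 22 to 909 molecules in DMSO libraries and 10 to 75 in picrotoxin libraries. Of the 13 that were tested all were lower with picrotoxin, 11 of them at an unadjusted p under 0.05 and none after adjustment (edgeR, lowest adjusted p = 0.109). Libraries numbered 1 and 2 also stood apart from those numbered 3 to 6 in both groups. What this numbering stands for is not given, and the split was made with earlier results of these data known.

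The 10 proteases together held 33592 molecules, between 0.926% and 1.31% of a library. Their summed share was 1.14% ± 0.153 in DMSO libraries and 1.20% ± 0.0683 in picrotoxin libraries (SD, n = 6), and the ranges overlapped. Within each treatment the share was higher in numbers 1 and 2, at 1.30% to 1.31% with DMSO and 1.26% to 1.28% with picrotoxin, than in numbers 3 to 6, at 0.926% to 1.13% and 1.11% to 1.23%.

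Levels of different genes were compared as normalised molecules (counts divided by a size factor of the library) per kilobase of the longest RefSeq-matched transcript, a scale that assumes priming along the whole RNA, whereas the oligo-dT primer favours stretches rich in A, so the order depends on that assumption. On this scale Ctss was the highest, at 649 ± 96.4 per kilobase over the 12 libraries (SD), and Ctsc followed at 222 ± 35.4, with ranges that did not overlap. Lgmn at 117 ± 15.4, Ctsz at 99.5 ± 13.6, Ctsb at 81.1 ± 9.94, Ctsh at 64.5 ± 9.94 and Ctsd at 58.9 ± 13.8 came next, and the ranges of neighbours in this order overlapped. Ctsh exceeded Ctsd in 6 of 12 libraries, so these neighbours had no order. Ctsl stood at 37.0 ± 12.4 per kilobase and Ctsa at 19.5 ± 3.55, and Ctsk was at 0.536 ± 1.07. Undivided, the mean normalised molecules were 879 for Ctss and 713 for Ctsc, with ranges of 699 to 1090 and 546 to 878 that overlapped. Then came 385 for Ctsb, 233 for Lgmn, 143 for Ctsz, 125 for Ctsd and 104 for Ctsh. Ctsl and Ctsa were nearly equal, at 72.9 and 71.1. The separate ranges of Ctss and Ctsc, the gap between Ctsl and Ctsa, and the places of Ctsb and Ctsd thus rest on the division by length. Within every library Ctss was above Ctsc even undivided.

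**Figure D1:**
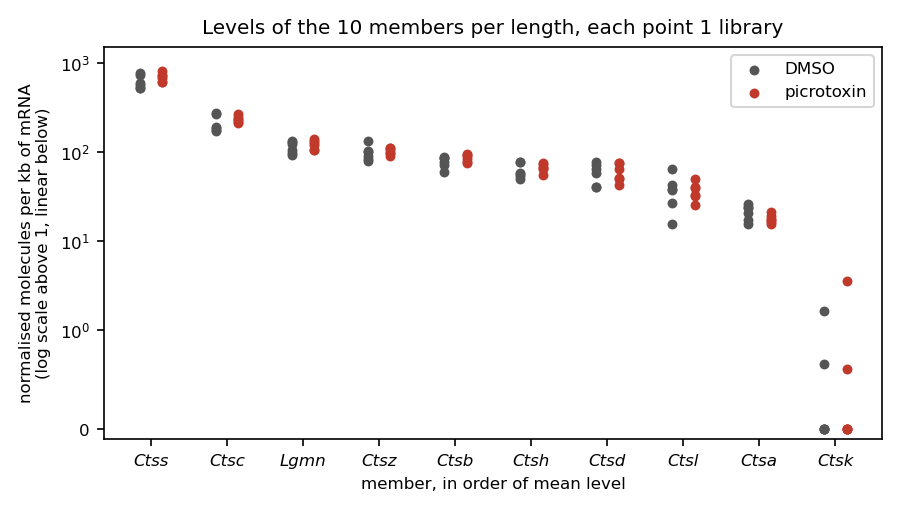
Normalised molecules per kilobase of mRNA (vertical axis, logarithmic above 1 and linear below) for the 10 proteases in order of mean level, each point 1 library, DMSO in grey and picrotoxin in red. On this scale Ctss and Ctsc stand clear of the other members, neighbours from Lgmn to Ctsa overlap, and Ctsk lies near 0 in both groups.

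To ask whether blockade of the GABA receptor changed these transcripts, picrotoxin and DMSO libraries were compared gene by gene in a fit across all tested genes (edgeR quasi-likelihood test, 2-sided, adjusted over the 9580 genes). Of all genes, 0.0522% (5 genes) had an adjusted p under 0.05 and 7.77% (744 genes) an unadjusted p under 0.05. Of the 9 proteases tested, 0 passed either threshold in edgeR or in DESeq2, with a lowest unadjusted p of 0.0770 in edgeR and 0.0928 in DESeq2. 7 were higher and 2 lower with picrotoxin (6 and 3 when scaled by library totals, where Ctsd turned), with a median log2 fold change of 0.11 beside -0.01 over all genes tested. The 95% intervals of the 9 ratios, not adjusted for their number, reached from 0.703 at the lowest to 1.30 at the highest bound. In bulk samples fewer macrophages that express a gene and less RNA per macrophage cannot be told apart.

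Cathepsin S, the protease that degrades the invariant chain in antigen-presenting cells (Ctss, chr3:95526786-95556403, plus strand), had 699 normalised molecules in the lowest, 778 in the median and 1037 in the highest DMSO library, and 815, 938 and 1090 in picrotoxin libraries. The groups overlapped, and the DMSO mean of 829 was exceeded in 4 of the 6 libraries given picrotoxin. The log2 fold change was 0.18 (SE 0.0987, 95% interval -0.02 to 0.38, edgeR adjusted p = 0.735).

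Cathepsin C, a dipeptidyl peptidase that activates the granule proteases of neutrophils and cytotoxic lymphocytes (Ctsc, chr7:88278085-88310888, plus strand), ranged from 546 through a median of 609 to 878 normalised molecules with DMSO and from 678 through 738 to 851 with picrotoxin. The DMSO mean of 677 was exceeded in all 6 libraries given picrotoxin, but their highest, 851, only matched DMSO library 2, at 850, and DMSO library 1 was higher. Its log2 fold change was 0.16 (SE 0.105, interval -0.06 to 0.37, adjusted p = 0.777 in edgeR).

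Cathepsin B, an endopeptidase that also trims 2 residues at a time from the carboxyl end (Ctsb, chr14:63122462-63145923, plus strand), had 282, 382 and 416 normalised molecules as lowest, median and highest in DMSO libraries and 351, 406 and 450 in picrotoxin libraries. The groups overlapped between 351 and 416, with a log2 fold change of 0.14 (SE 0.0975, interval -0.06 to 0.34, edgeR adjusted p = 0.781). Above that span lay picrotoxin libraries 1, 2 and 6, at 421, 432 and 450. Below it lay DMSO libraries 3 and 6, at 282 and 336. The annotated Ctsb transcripts share 774 bases with the opposite strand gene Fdft1, and since the counting is not stated to use strand, molecules there could belong to either gene.

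Cathepsin H, an aminopeptidase (Ctsh, chr9:90054152-90076089, plus strand), spanned 79.8 to 126 normalised molecules with DMSO (median 92.2) and 90.0 to 122 with picrotoxin (median 107). Cathepsin Z, a carboxypeptidase (Ctsz, chr2:174427493-174439039, minus strand), spanned 115 to 188 (median 137) and 130 to 158 (median 146). In both genes the picrotoxin range lay inside the DMSO range, and the log2 fold changes were 0.12 (SE 0.124, interval -0.13 to 0.38) and 0.07 (SE 0.113, interval -0.16 to 0.30). Leaving out single libraries gave 0.06 to 0.20 for Ctsh and 0.02 to 0.17 for Ctsz. Exons of Ctsz overlap the opposite strand gene Nelfcd.

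Legumain (Lgmn, chr12:102394084-102439813, minus strand), which sits above several cathepsins in the cleavage order, had 184, 226 and 266 normalised molecules as lowest, median and highest in DMSO libraries and 207, 244 and 275 in picrotoxin libraries. The log2 fold change was 0.11 (SE 0.106, interval -0.11 to 0.32, edgeR adjusted p = 0.874), and the groups overlapped.

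Cathepsin L, an endopeptidase of lysosomes and, when secreted, of matrix (Ctsl, chr13:64359337-64370890, minus strand), was the most variable of the 9. It had 30.8, 74.4 and 126 normalised molecules as lowest, median and highest in DMSO libraries and 49.9, 71.4 and 98.3 in picrotoxin libraries. The coefficient of variation was 43.6% and 23.2%, where counting alone would give 11.1% and 12.02%. The picrotoxin libraries lay within the DMSO range, and the log2 fold change was -0.03 (SE 0.191, interval -0.42 to 0.36, edgeR adjusted p = 0.990).

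Cathepsin D, the main aspartic protease of lysosomes (Ctsd, chr7:142375911-142388038, minus strand), had 86.4, 129 and 164 normalised molecules as lowest, median and highest with DMSO and 89.4, 123 and 160 with picrotoxin. Its coefficient of variation was 26.2% and 23.0%, against 8.54% and 9.12% from counting alone, and the log2 fold change was 0.03 (SE 0.147, interval -0.27 to 0.32). The sign of both Ctsl and Ctsd turned with the scaling, the terms or the libraries in the fit, so no direction is given for either.

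Cathepsin A, a serine carboxypeptidase that also shields neuraminidase and β-galactosidase in the lysosome (Ctsa, chr2:164832873-164841032, plus strand), had the largest difference in size. Its DMSO libraries ran from 56.6 through a median of 79.9 to 95.7 normalised molecules, and its picrotoxin libraries from 56.3 through 63.4 to 77.1. The DMSO mean of 77.2 was reached by none of the 6 libraries given picrotoxin, although their highest was only just below it, and the ranges overlapped. The log2 fold change was -0.24 (SE 0.132, interval -0.51 to 0.03, edgeR unadjusted p = 0.0770, adjusted p = 0.728). Ctsa overlaps exons of the opposite strand genes Neurl2 and Pltp, with 324 bases shared with Neurl2, and molecules there cannot be assigned without strand.

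Cathepsin K, the collagen-cleaving protease known from osteoclasts (Ctsk, chr3:95499256-95509362, plus strand), lies 17423 bases from Ctss on the same strand. It held 10 molecules in all, against 10789 for its neighbour. DMSO libraries had 1 molecule in number 2, 3 in number 5 and 0 in the others, and picrotoxin libraries had 1 in number 1, 5 in number 6 and 0 in the others. No difference was detectable at this depth, and no fold is given.

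**Figure D2:**
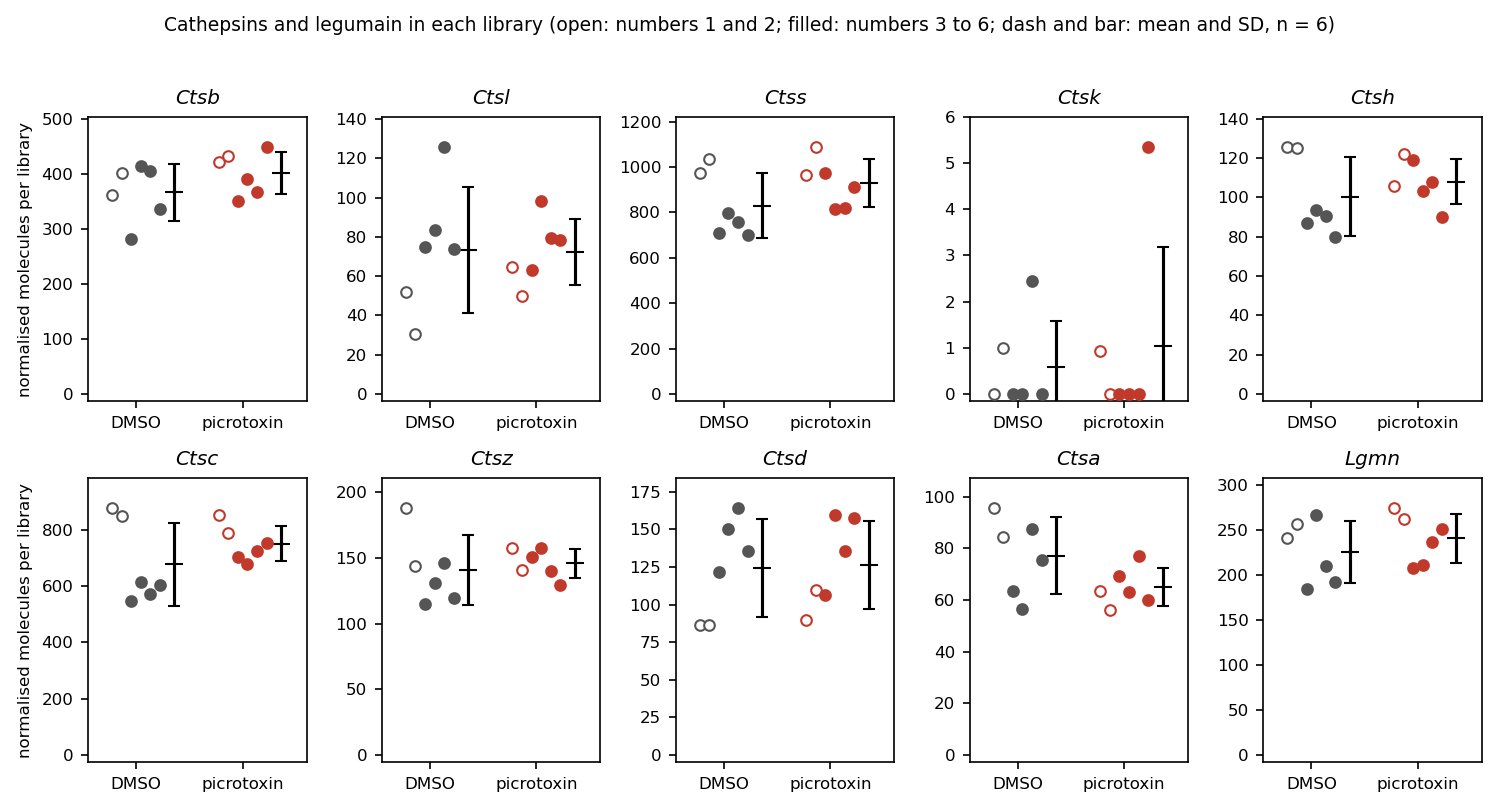
Normalised molecules per library (vertical axes, starting near 0) for each protease, with open points for libraries 1 and 2, filled points for libraries 3 to 6, and the mean and SD of 6 libraries beside them. The treatments overlap in every panel, while open points lie low for Ctsl and Ctsd and high for Ctsc and Ctss.

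The members did not vary together between libraries. Ctsl was lowest in numbers 1 and 2, with 30.8 to 64.5 normalised molecules against 63.1 to 126 in numbers 3 to 6, and Ctsd likewise had 86.4 to 109 against 106 to 164. The opposite order was seen for Ctsc, at 788 to 878 against 546 to 751 without overlap, for Ctss, at 965 to 1090 against 699 to 976, and for Ctsh, at 106 to 126 against 79.8 to 119. On the log2 scale the mean of numbers 3 to 6 over that of 1 and 2 was 0.78 for Ctsl and 0.61 for Ctsd, and -0.37 for Ctsc, -0.33 for Ctss and -0.31 for Ctsh. The other members tested lay between -0.11 and -0.23. These are descriptions with no test, since the split was made after these data had been seen. Ctsl and Ctsd both hold the E-box printed above, and so do Lgmn and Ctsa, which were among the members with the lower mean in numbers 3 to 6.

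**Figure D3:**
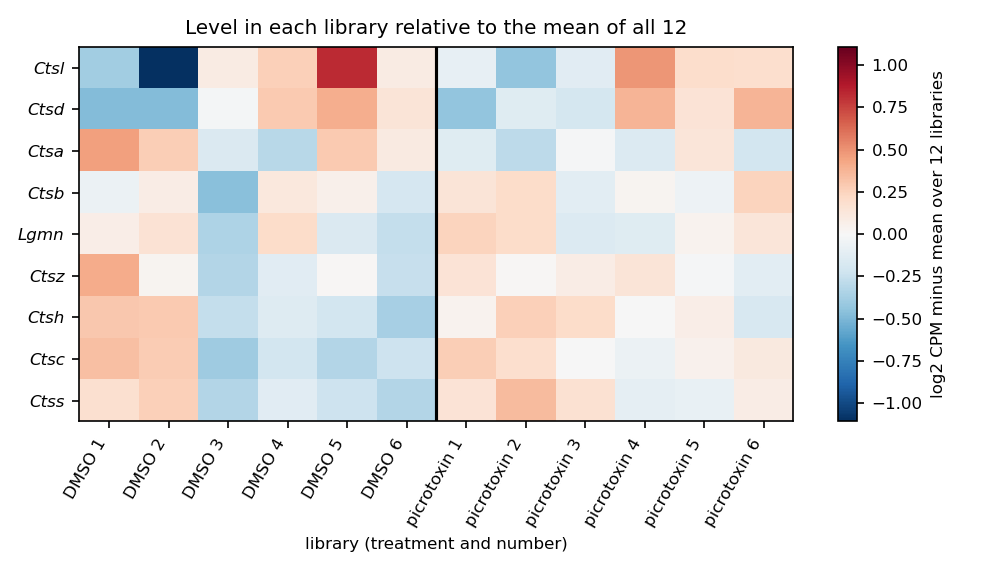
Heat map of log2 CPM in each library minus the mean of all 12, for the 9 proteases tested (rows) in the DMSO and picrotoxin libraries (columns). Ctsl and Ctsd are low in libraries 1 and 2 of both groups, and Ctsh, Ctsc and Ctss are above their mean there.

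The treatments were then read within numbers 3 to 6, as a description, since this set of libraries was picked with the data known. The matrix markers also differed between treatments mainly here, with a mean score of 9.60 in DMSO and 7.31 in picrotoxin libraries, against 6.75 and 7.17 in numbers 1 and 2. There Ctsc had 546, 573, 604 and 614 normalised molecules in the DMSO libraries and 678, 703, 726 and 751 in the picrotoxin libraries, in order of size. Ctss had 699, 708, 757 and 799 with DMSO and 815, 819, 912 and 976 with picrotoxin. Neither gene overlapped between treatments in these 8 libraries, which was true in this direction of 2.2% of all 9666 genes tested in them. In a fit of these libraries alone the log2 fold change was 0.31 for Ctsc (SE 0.0920) and 0.27 for Ctss (SE 0.0935). Over all 12 libraries it was 0.16 and 0.18 without the matrix score, and 0.03 and 0.04 with the score as a term. The score was not added in the fit of numbers 3 to 6 alone, and its part in the difference was not tested. Ctsh, whose groups overlapped, had 0.28 (SE 0.130), and no protease passed the adjusted threshold in these libraries.

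In numbers 1 and 2, Ctsc had 850 and 878 normalised molecules with DMSO and 788 and 851 with picrotoxin, and Ctss had 975 and 1037 against 965 and 1090, so that the treatments overlapped. In a fit with separate effects, the log2 fold change in numbers 3 to 6 minus that in numbers 1 and 2 was 0.39 for Ctsc (SE 0.146, edgeR adjusted p = 0.698), 0.24 for Ctss (SE 0.150, adjusted p = 0.875) and 0.42 for Ctsh (SE 0.210, adjusted p = 0.851). It was larger in size for Ctsl, at -0.63 (SE 0.314, edgeR adjusted p = 0.851), and for Ctsa, at 0.52 (SE 0.251, adjusted p = 0.848). No member's effect was thus shown to differ between the 2 sets of libraries. For Ctsa the lower level was in numbers 1 and 2, with 84.4 and 95.7 normalised molecules against 56.3 and 63.6, while in numbers 3 to 6 the values were 56.6 to 87.5 and 60.01 to 77.1. The log2 fold change of Ctsa was -0.58 (SE 0.205) in the former and -0.07 (SE 0.145) in the latter.

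**Figure D4:**
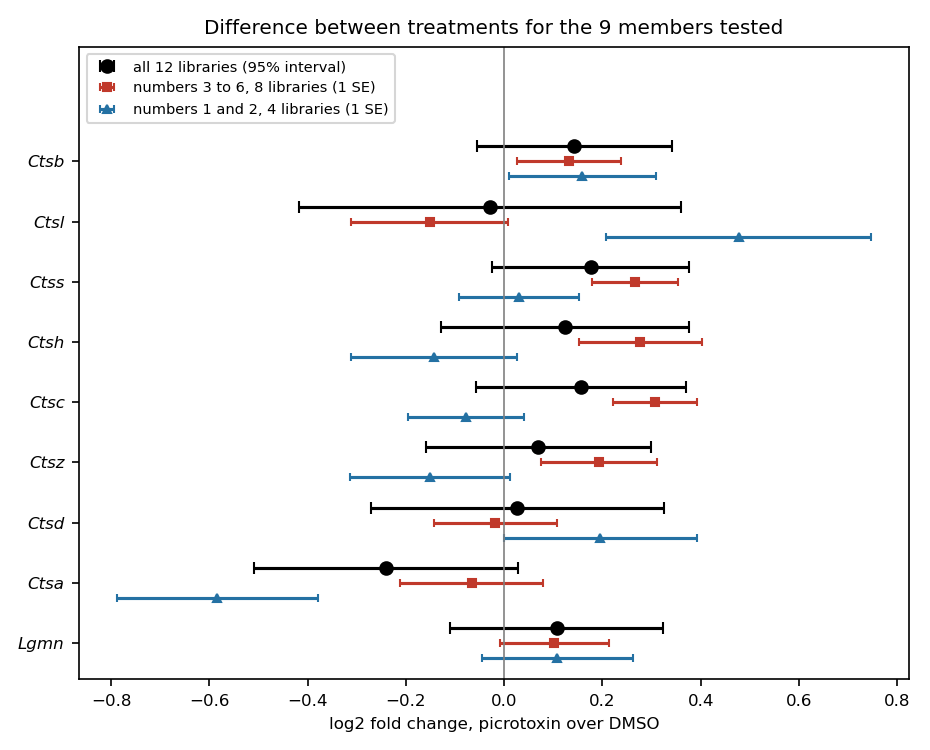
Log2 fold change of picrotoxin over DMSO (horizontal axis) for the 9 proteases tested, over all 12 libraries with its 95% interval (black), and in numbers 3 to 6 (red) and numbers 1 and 2 (blue) with 1 SE from a fit with separate effects. All 9 black intervals cross 0, and Ctsc, Ctss and Ctsh lie at 0.27 to 0.31 in numbers 3 to 6.

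Because cathepsins are also made by fibroblasts and the matrix markers differed between libraries, the slope of each gene on the summed matrix markers (log2 CPM) was fitted with treatment as a term. The score ran from 6.68 to 11.7 in DMSO and from 5.71 to 8.57 in picrotoxin libraries, and 0.909% of 9567 genes had a slope at an adjusted p under 0.05. Among them were Ctsl, with a slope of 0.23 (SE 0.0467, edgeR adjusted p = 0.00466), and Ctss, with -0.10 (SE 0.0263, adjusted p = 0.0396). Ctsc had -0.10 (SE 0.0286, adjusted p = 0.0638), Ctsd 0.12 (SE 0.0419, adjusted p = 0.243) and Ctsh -0.10 (SE 0.0371, adjusted p = 0.323). DMSO library 5, with the highest score, also had the highest Ctsl, 126 normalised molecules.

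Neither slope held under every choice. Without DMSO libraries 3 and 5, which lie farthest from the median score, Ctsl kept a slope of 0.23 with an adjusted p of 0.375 and Ctss one of -0.16 with an adjusted p of 0.112 (edgeR). With numbers 1 and 2 against 3 to 6 as a further term they were 0.16 (edgeR adjusted p = 0.141) and -0.06 (adjusted p = 0.666). Leaving out single libraries, Ctsl stayed past the threshold in 10 of 12 fits and lost it without DMSO library 2 (edgeR adjusted p = 0.0913) or DMSO library 5 (adjusted p = 0.220). Ctss stayed past it in 4 of 12, those without DMSO library 4 or 5 or picrotoxin library 1 or 3. With the score as a term beside treatment, the log2 fold change of Ctsl was 0.36 (SE 0.163, edgeR adjusted p = 0.798), that of Ctss 0.04 and that of Ctsc 0.03. The part of matrix-producing cells in these levels was not tested. Ctsk, at 3 molecules in DMSO library 5 and 5 in picrotoxin library 6, one with 909 and the other with 23 matrix molecules, was too low for a slope.

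**Figure D5:**
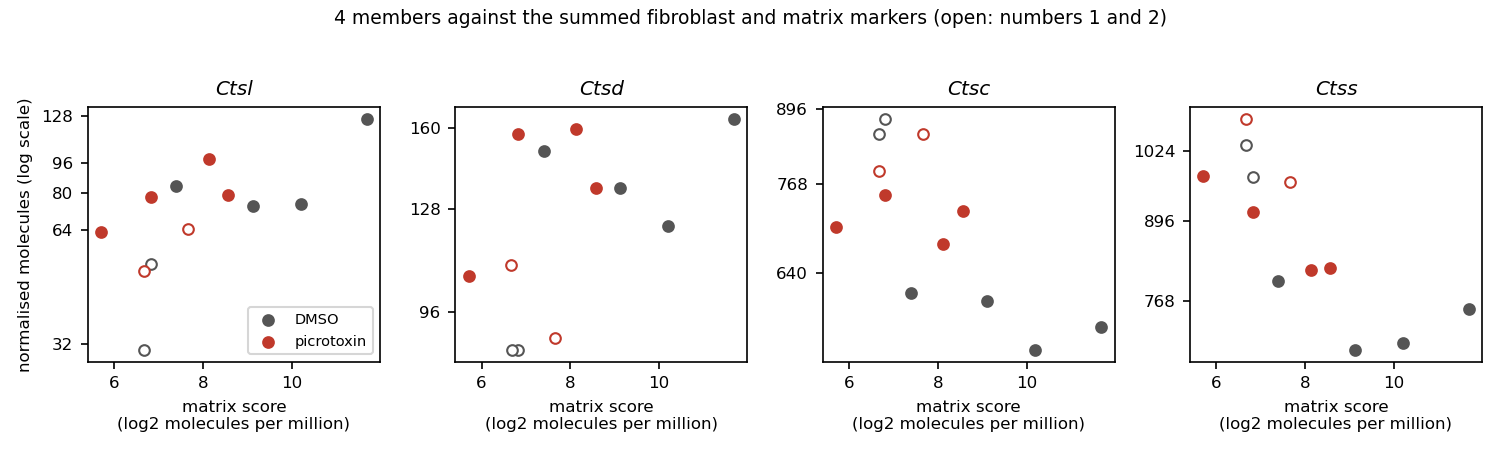
Normalised molecules of Ctsl, Ctsd, Ctsc and Ctss (vertical axes, logarithmic) against the matrix score (log2 CPM) in the 12 libraries, DMSO in grey and picrotoxin in red, open for numbers 1 and 2. Ctsl is highest at the highest score, 11.7, Ctsc and Ctss are lower in the DMSO libraries with scores above 9, and libraries 1 and 2 sit at scores below 8.

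Genes that act with the proteases were read from lists chosen with earlier results of these data known. None of their members passed the adjusted threshold. Of all 9580 genes tested, 4709 were higher with picrotoxin and 4871 lower. At an unadjusted p under 0.05 (edgeR), 350 of all genes were higher and 394 lower. Outside the 10 members, cathepsins were nearly absent: of 14 genes, 11 had no molecule in any library, the lymphocyte cathepsin Ctsw and the granule protease Ctsg among them, and only Ctso was tested, at 5.03 ± 2.16 normalised molecules with DMSO and 6.43 ± 3.35 with picrotoxin (SD, n = 6). Among the inhibitors, 4 of 11 were tested and all 4 were higher with picrotoxin, 1 at an unadjusted p under 0.05. This was cystatin C, the secreted inhibitor of cysteine cathepsins (Cst3), which stood at 304 to 378 normalised molecules with DMSO and 337 to 408 with picrotoxin. Its log2 fold change was 0.20 (SE 0.0896, edgeR adjusted p = 0.597), and the DMSO mean was exceeded in 6 of 6 libraries given picrotoxin.

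In the sorting route, 6 of 7 genes were tested, 4 higher and 2 lower (3 and 3 with library totals), and M6pr, the cation-dependent mannose 6-phosphate receptor that delivers the precursors, had 69.7 ± 8.52 and 87.4 ± 17.8 normalised molecules (SD, n = 6; log2 fold change 0.34). It was the only gene of this list at an unadjusted p under 0.05, and its adjusted p in edgeR was 0.495. Partners of cathepsin A and the sphingolipid activators were 4 higher and 2 lower of 6 (3 and 3 with library totals), none at an unadjusted p under 0.05. Their most abundant gene, the saposin precursor Psap, which cathepsin D cleaves, stood at 474 ± 96.9 and 486 ± 59.3. Other lysosomal peptidases were 4 higher and 1 lower of 5, none at an unadjusted p under 0.05, led by Scpep1 at 49.6 ± 6.25 and 56.1 ± 8.002.

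Of 17 glycosidases and lipases, 11 were higher and 6 lower (9 and 8 with library totals), with 3 higher and 0 lower at an unadjusted p under 0.05. Among these were the α-mannosidase Man2b1 (48.1 to 69.6 against 65.6 to 89.4 normalised molecules, log2 fold change 0.37, edgeR adjusted p = 0.351) and the β-mannosidase Manba (0.732 to 1.64 against 0 to 5.75, 1.61, adjusted p = 0.448). For Man2b1 each of the 6 libraries given picrotoxin exceeded the DMSO mean. The median of the list was 0.08, beside -0.01 over all genes. Of the 4 transcription factors of the lysosomal programme 3 were higher, and Tfe3, a relative of TFEB, had 11.2 ± 3.19 and 16.4 ± 5.66 normalised molecules (log2 fold change 0.59, unadjusted p under 0.05, edgeR adjusted p = 0.545).

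Among substrates and partners in antigen handling, 6 of 7 genes were tested and all 6 were higher with picrotoxin, 3 at an unadjusted p under 0.05, and the median log2 fold change was 0.29. The thiol reductase Ifi30 had 155 to 203 normalised molecules with DMSO and 184 to 255 with picrotoxin (0.30, SE 0.107, edgeR adjusted p = 0.408). Tlr13, an endosomal sensor of bacterial ribosomal RNA, had 11.5 to 24.1 and 20.1 to 27.3 (0.47, edgeR adjusted p = 0.570), and Cd74, the invariant chain itself, 473 to 1012 and 643 to 1068 (0.29, edgeR adjusted p = 0.619). Beside these lists, 11 of 14 macrophage markers were higher with picrotoxin and 3 lower (10 and 4 with library totals), with a median log2 fold change of 0.16 and 3 at an unadjusted p under 0.05, among them Itgam (log2 fold change 0.38) and Mrc1 (0.48). The part of macrophage content or of matrix cells in these differences was not tested.

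The genes whose library pattern was most like the mean of the 9 proteases, with group means removed, were Fam3c (Pearson r = 0.92), Sdcbp (0.90) and Cyba (0.90), out of 3732 genes with at least 10 normalised molecules, over 12 libraries that share depth and library preparation. These values are a description of likeness, with Ctsk left out of the mean because it was not tested. Ctsl and Ctsd ran opposite to Ctsc, Ctss and Ctsh between libraries, so the mean does not stand for each protease.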

How the data were processed

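For 12 libraries the authors deposited molecule counts, as whole numbers, under gene symbols. The labels describe RNA broken by heat and copied with an oligo-dT primer carrying a molecular barcode, and reads were mapped with STAR to mm10. Strand and multiple mapping were not stated. The 10 genes were read from the table, and members and lists were chosen with earlier results of these data known. Genes with a mean above 1 normalised molecule were tested with the quasi-likelihood test of edgeR 4.0.16 (R 4.3.3, TMM) and, as an alternative, DESeq2 1.42.0, with Benjamini-Hochberg adjustment. Normalised molecules are counts divided by DESeq2 size factors. SEs were derived from the log2 fold change and F, and the code was tested on simulated data. Named were all members, up to 3 genes of a list by smallest p among those with an unadjusted p under 0.05, and the most abundant gene of a list; the results of some list genes are counted but not reported here. Positions and lengths are from GENCODE M21 (mm10), promoters from RefSeq. The 30 pairs of libraries of 1 group had chi-square per degree of freedom of 1.23 to 3.15, so no library was a copy of another in its group. These values do not tell whether libraries shared a mouse.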

Additional observations from a re-analysis of the deposited data

Results flagged for a closer look

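Ctsk stood out in picrotoxin library 6, with 5.36 normalised molecules, while its group otherwise ran from 0 to 0.922, a gap to the nearest value of 0.828 of the whole range, past Dixon's limit for 6 samples. With 0 molecules in most libraries of the group, a few molecules in 1 library are enough to pass that limit. The value rests on 5 molecules. It was the only one of 24 groups so tested, and chance gives about 1 in 20. Picrotoxin library 6 also held the most T and NK cell marker molecules, 23, nearly all from Gzmb, and whether these go together was not tested.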

How the results depend on the processing

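No protease was called under any of 22 alternatives for the comparison of treatments. Over all genes the number called, 5 in the main test, was 2 in DESeq2, 13 with library totals, 81 with every gene of at least 1 molecule, 12 without the ribosomal RNA row, 27 with numbers 1 and 2 against 3 to 6 as a term, 49 in numbers 3 to 6 alone, 0 with the matrix score as a term (562 genes at an unadjusted p under 0.05 there) and 0 to 25 when leaving out single libraries (0 without DMSO 5 or 6 or picrotoxin 2, 3 or 4). With the replicate number as a replicate block 43 genes were called. The numbers are not taken as pairs, since what they stand for is not given. The correlations of deviations of same-numbered libraries were -0.0164 to 0.0469 over all genes tested. Counting error in genes with few molecules lowers such values, so they cannot decide whether the numbers are pairs.

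Proteases at an unadjusted p under 0.05, 0 in the main test, were 1 with library totals, 1 with every gene and 1 with a mean above 10 (Ctsa each time), 2 with the replicate block and 2 with the number term (Ctsc and Ctss), 1 with the matrix score (Ctsl), 3 in numbers 3 to 6 alone, and 0 to 2 when leaving out single libraries. These were Ctsc and Ctss without DMSO 1 or 2, Ctss without picrotoxin 4, and Ctsa without DMSO 3 or 4 or picrotoxin 5. Members with a slope on the matrix score, 2 in the main test, were 0 without DMSO 3 and 5, 0 with the number term, 1 with library totals, 3 without the treatment term and 0 to 4 when leaving out single libraries, a choice made after seeing the data.

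Signs turned for Ctsl, from -0.03 to 0.027 with the replicate block, 0.014 with the number term, 0.36 with the matrix score and -0.18 to 0.19 leaving out single libraries, and for Ctsd, from 0.03 to -0.032 with library totals, -0.0032 with a mean above 10, -0.015 in numbers 3 to 6 alone and -0.059 to 0.12 leaving out single libraries. Ctsh was -0.0029 with the matrix score. Effects fitted separately for numbers 1 and 2, added after seeing the data, turned to -0.078 for Ctsc, -0.14 for Ctsh, 0.48 for Ctsl and -0.15 for Ctsz, and for numbers 3 to 6 to -0.018 for Ctsd. The slope of Ctsa, -0.0031, was 0.024 with the number term, 0.0092 with library totals, 0.028 without the treatment term and -0.052 to 0.032 leaving out single libraries. The other log2 fold changes kept their sign when leaving out single libraries, at -0.32 to -0.18 for Ctsa, 0.07 to 0.18 for Ctsb, 0.10 to 0.24 for Ctsc, 0.12 to 0.25 for Ctss and 0.05 to 0.15 for Lgmn. The cause was not tested. CPM in place of size factors moved no ratio of means beyond 1 SD. Intervals of about 0.7 to 1.3 set the limit of what 6 libraries of 100 cells per group could show.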
